A study of Mus musculus with 18 samples.

Results

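The genes described here are 39 enzymes and regulators that build fatty acids and sterols, followed through the reproductive cycle of the mouse mammary gland. They form a fixed list of gene symbols, all 39 of which were found among the 31053 features counted in each library. The list was split into a fatty acid arm of 20 genes and a sterol arm of 19. Of the 18 single-cell RNA libraries in the series, the 10 from FVB/NJ mice at the adult, pregnant, lactating and post-involution stages were used. All of these mice were of 1 inbred strain, and the labels name no transgene or treatment for them. There were 3 libraries of adult mice aged 10 weeks (A10, P7 and D12), 2 of pregnancy day 12.5 (H and G) and 2 of pregnancy day 18.5 (F4 and B4). Lactation day 10 was covered by F11 and D6, and a single library was taken post-involution, 3 weeks post birth. Ages and times follow the labels, and in places the text of the study differs on the lactation day and dates the post-involution weeks from weaning. Each library came from mice pooled before capture, and cells were sorted with surface markers for mammary epithelium after a step to remove blood and endothelial cells. A mixed cluster of endothelial, blood and immune cells nonetheless held 553 of 5287 kept cells in F11, 1443 of 6804 in D6 and 10 to 420 in the other libraries, and it was left unnamed and out of the tests.

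Lactating alveolar cells secrete milk fat, whose fatty acids are partly made in these cells and partly taken up from the blood. Acetyl-CoA is carboxylated to malonyl-CoA by the acetyl-CoA carboxylases (Acaca and Acacb), fatty acid synthase (Fasn) extends the chain, and in the mammary gland the thioesterase Olah releases it early. Elongases (Elovl) and desaturases (Scd, Fads) then modify chains, and Gpam, Dgat1 and Dgat2 join them to the glycerol backbone, with Lpin1 removing the phosphate in between. Sterols are made from acetyl-CoA by a separate route through mevalonate, isoprenoids, squalene and lanosterol. The transcription factors SREBP-1 (Srebf1) and SREBP-2 (Srebf2) drive mainly the fatty acid and the sterol genes respectively, Insig1 holds both in the endoplasmic reticulum when sterols are plentiful, and Thrsp promotes lipid synthesis.

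SREBP proteins bind sterol response elements beside CCAAT boxes bound by NF-Y, so the sequence just before the start of the genes was examined. RefSeq promoters (GRCm38.p6, first listed start of each gene, 250 bases upstream) were given for 30 of the 39 members, 15 in each arm. The letters CCAAT, on either strand, occurred in 13 of 15 sterol promoters and 8 of 15 fatty acid promoters, against 34.5% of all 27025 promoters. The sterol response element TCACNCCAC, on either strand, occurred in 1 of 15 sterol promoters and 0 of 15 fatty acid promoters, against 1.04% of all. These letters are a description of the window and were not tested as binding sites. The last 150 bases before the start are shown for Fasn and Thrsp, whose transcripts rose in pregnancy, and for Hmgcs1, Idi1 and Mvk of the mevalonate route, which were not called in pregnancy. Capitals mark CCAAT on either strand and, in Hmgcs1, also the sterol response element 137 to 129 bases before the start.
Fasn (chr11:120824548-120824697, minus strand): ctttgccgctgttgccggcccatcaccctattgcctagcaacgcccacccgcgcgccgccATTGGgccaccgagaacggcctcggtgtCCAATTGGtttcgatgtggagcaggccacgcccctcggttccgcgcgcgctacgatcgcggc
Thrsp (chr7:97417551-97417700, minus strand): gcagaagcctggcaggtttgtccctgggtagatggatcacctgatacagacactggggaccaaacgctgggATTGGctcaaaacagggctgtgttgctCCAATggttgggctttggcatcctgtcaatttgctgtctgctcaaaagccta
Hmgcs1 (chr13:119690201-119690350, plus strand): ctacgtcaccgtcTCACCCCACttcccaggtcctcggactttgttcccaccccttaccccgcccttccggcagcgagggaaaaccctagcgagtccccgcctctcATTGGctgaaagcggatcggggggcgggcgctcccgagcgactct
Idi1 (chr13:8885456-8885605, plus strand): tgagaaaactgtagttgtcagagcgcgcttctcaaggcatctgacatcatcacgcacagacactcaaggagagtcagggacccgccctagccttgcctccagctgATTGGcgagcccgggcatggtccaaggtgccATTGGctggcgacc
Mvk (chr5:114444119-114444268, plus strand): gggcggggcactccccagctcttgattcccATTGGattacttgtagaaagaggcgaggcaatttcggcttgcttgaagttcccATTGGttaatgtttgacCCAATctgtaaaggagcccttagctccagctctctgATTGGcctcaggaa
Mvk carried 5 CCAAT matches in its 250 bases, Hmgcs1 and Fasn 3 each, and Thrsp and Idi1 2 each. In Fasn the pair nearest the start overlapped on opposite strands. Of the other fatty acid genes called higher at day 12.5, Olah, Acaca and Acly had no CCAAT match in their 250 bases. Acacb had 1, and no promoter was given for Fads1.

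Library totals ran from 9920346 to 93234616 counts of unique molecular identifiers (UMIs), and 83020 of 96685 barcodes were kept as cells. Clusters were named from fixed marker genes as basal, luminal progenitor (LP)/alveolar, mature luminal (ML), fibroblast and adipocyte-like. LP/alveolar cells numbered 761 to 5771 per library. Their markers were raised in the cluster as a whole (8 of 9 in its main cluster, 6 of 9 in a cluster here called secretory). The milk share of the secretory cluster was above that of the main cluster in pregnancy and lactation. In adults it was below, at 1.24% against 3.70% in A10, 0.703% against 1.98% in P7 and 0.0306% against 0.196% in D12. Post-involution it was also below, at 4.63% against 10.05%. The secretory cluster held 29 to 111 of the LP/alveolar cells of each adult library, 35 in each of H and G, 404 of 5769 in F4, 282 of 2358 in B4, 1772 of 3373 in F11 and 2231 of 3787 in D6. The basal class likewise joined a main cluster (8 of 8 markers raised) and a cluster led by cell cycle genes such as Cenpf and Top2a (4 of 8), which held 1130 of 4706 basal cells in H and 2055 of 8114 in G but 3 of 861 in F11 and 13 of 372 in D6. Results for both classes are therefore also given for the main cluster alone, a setting added after seeing the data. The 8 milk genes (5 caseins, Wap, Lalba and Glycam1) took 77.0% and 78.2% of LP/alveolar UMIs in the lactation libraries F11 and D6, and 0.194% to 3.67% in adults. All levels below are therefore UMI counts scaled to a common total that leaves out milk genes (CPM). Levels between stages were further scaled by TMM factors (scaled CPM), which set the typical gene equal between libraries. Of the lactation libraries, F11 kept 48.6% of its barcodes and D6 68.9%, and their median depths without milk were 1799 and 3545 UMIs per cell. No pair of libraries shared more than 2.02% of kept barcodes, though adult P7, with barcodes of 14 bases where the other libraries had 16, could share none.

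In LP/alveolar cells, relative to totals without milk genes, the summed fatty acid arm was higher at each successive stage from adult to lactation, while the summed sterol arm differed little between stages beside the spread of its libraries. The summed fatty acid arm was 688, 737 and 366 CPM in the adult libraries A10, P7 and D12, 2173 and 2070.4 at pregnancy day 12.5 (H and G), 7112 and 6946 at day 18.5 (F4 and B4), and 11727 and 16023 in lactation (F11 and D6). Libraries of successive stages did not overlap, and the mean was 3.55, 11.8 and 23.2 times the adult mean. The summed sterol arm was 235, 514 and 382 CPM in the adult, 501 and 484 at day 12.5, 582 and 527 at day 18.5, and 436 and 1054 in lactation. Its means were 1.30, 1.47 and 1.97 times the adult mean, its lactation libraries lay on either side of all 4 pregnancy libraries, and F11 lay within the adult range. The last step of the fatty acid arm depended on the scale. With milk genes in the totals the sum was 4626 and 4458 CPM at day 18.5 and lower, at 2695 and 3492, in lactation, and in UMIs per cell the stages overlapped (31.97 and 54.01, then 27.8 and 66.8). No test was made on these sums. Fasn, Scd1 and Thrsp, singled out after their levels were seen, made up 65.4% and 63.6% of the fatty acid sum in the lactation libraries.

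**Figure D1:**
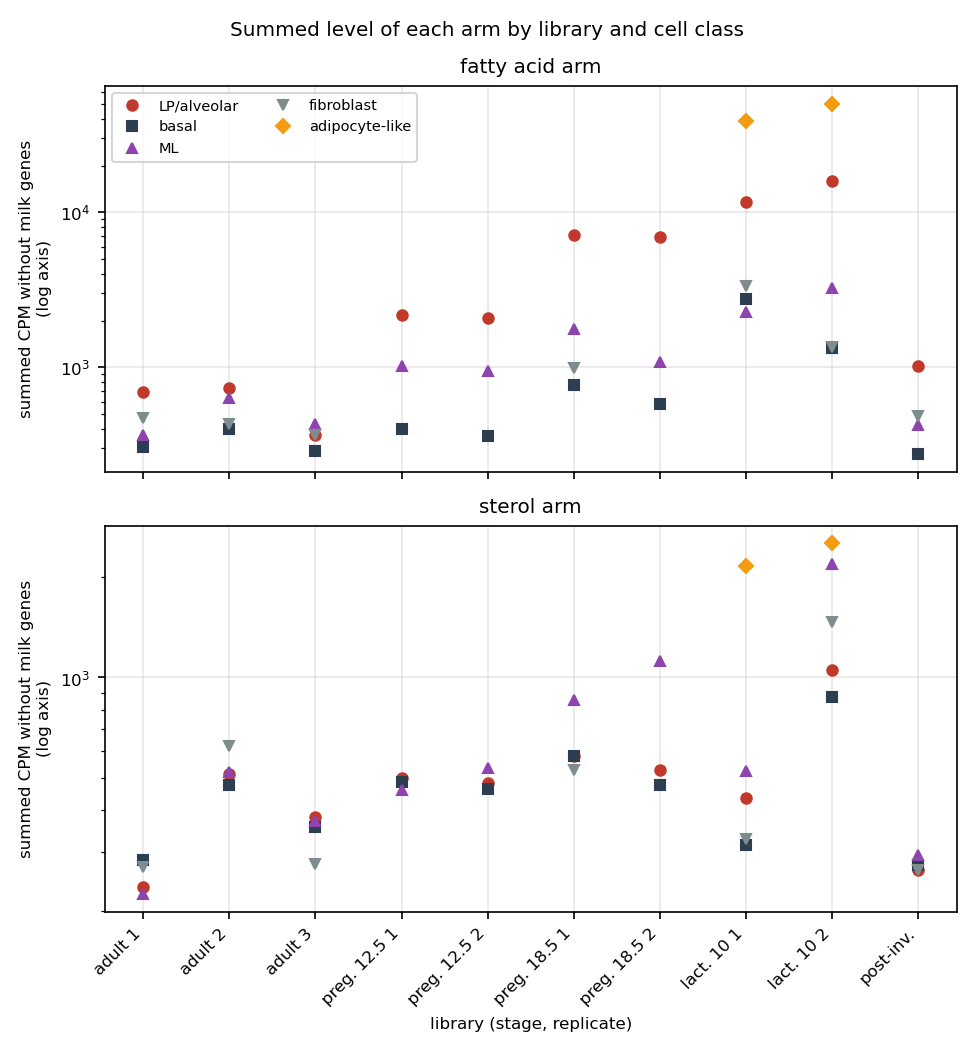
Summed CPM without milk genes of the fatty acid arm (top) and sterol arm (bottom) on log axes, with 1 point for each library and cell class of 20 or more cells. In LP/alveolar cells the fatty acid arm lay between 366 and 737 in the adult libraries and at 11727 and 16023 in lactation. The sterol arm in LP/alveolar, basal and ML cells lay between 224 and 519 in the adult libraries. It was 436, 316 and 523 respectively in lactation F11 and 1054, 873 and 2180.5 in lactation D6.

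**Figure D2:**
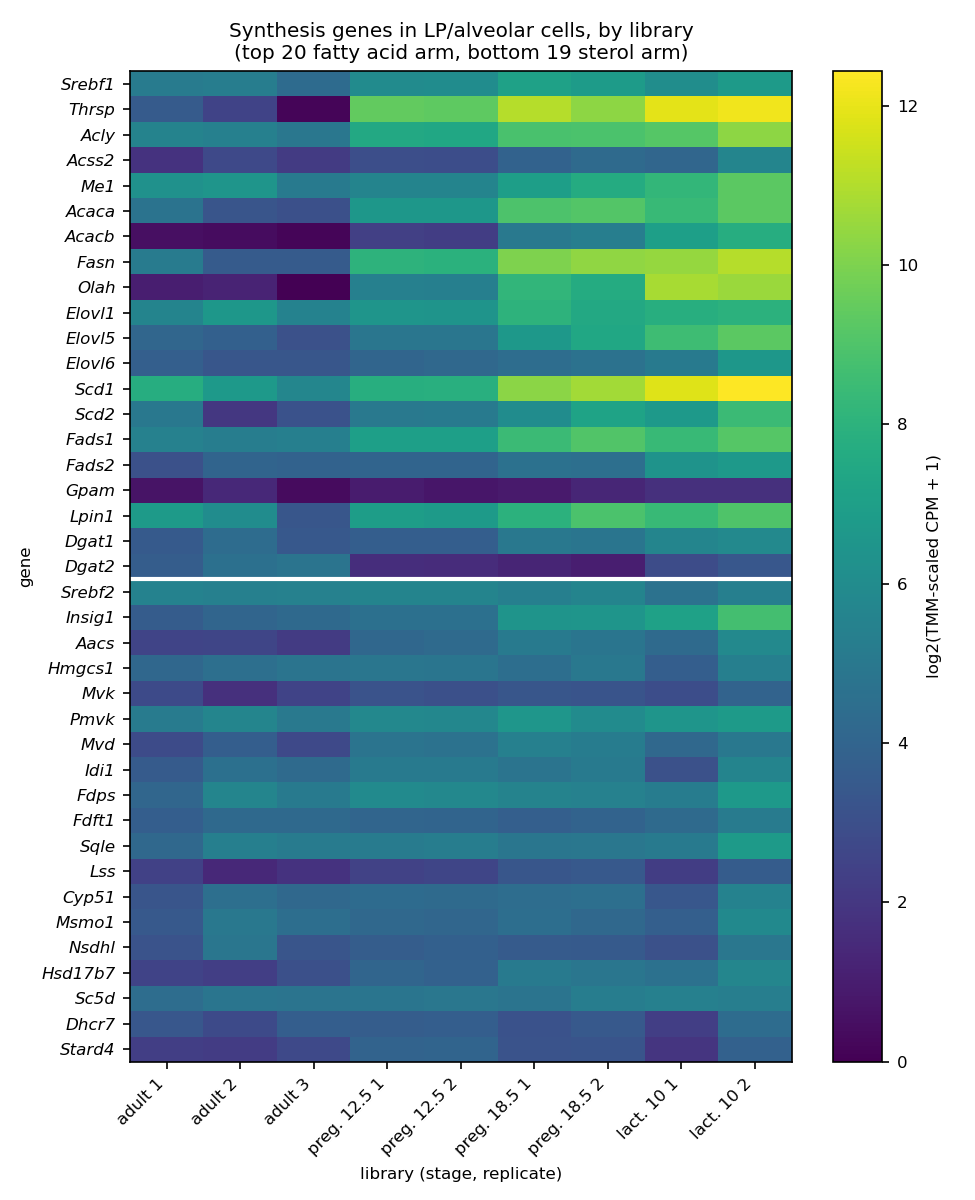
Log2 of scaled CPM + 1 for each of the 39 genes (rows) in LP/alveolar cells of 9 libraries (columns). Above the white line, most fatty acid genes brightened from adult to lactation, with Dgat2 the exception. Below it most sterol genes changed less in shade, while Insig1, Aacs and Hsd17b7 were among those that brightened.

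Tests between stages used edgeR quasi-likelihood fits on UMIs summed per library, with Benjamini-Hochberg adjustment over 13241 genes and a call at adjusted p under 0.05. From adult to pregnancy day 12.5, 7 fatty acid genes rose and 1 fell in LP/alveolar cells, and 3 of 19 sterol genes rose. Of all genes tested, 13.6% were called and 5.6% were called higher. From day 12.5 to day 18.5, 1 fatty acid gene rose and no sterol gene was called, against 0.982% of all genes called and 0.846% called higher. Although single genes rarely passed, 19 of 20 fatty acid genes had a log2 change above 0, with a median of 1.55 beside 0.01 for all genes and 0.15 for the sterol arm. From day 18.5 to lactation, 3 fatty acid genes rose and no sterol gene was called, against 3.42% called and 2.44% called higher. Over the whole interval from adult to lactation, 18 fatty acid genes rose and 1 fell, and 6 sterol genes rose, where 30.2% of all genes were called and 14.9% were called higher. The median log2 change over that interval was 3.32 for the fatty acid arm, 0.88 for the sterol arm and -0.11 for all genes. These directions are relative to the scaling: 49.2% of all calls over the whole interval were higher with TMM factors, 32.0% with totals without milk genes alone (median of all genes -0.47) and 3.16% with milk genes in the totals (median -2.60). With milk in the totals the arm medians were 0.77 for fatty acids and -1.65 for sterols, and from day 18.5 to lactation 4 fatty acid genes were called, 0 of them higher, with an arm median of -0.69. Counts for the shorter steps depended on single libraries. At day 12.5, 3 fatty acid genes were called without H and 5 without G, and no sterol gene without either. The call of Fasn and that of Dgat2 were lost without H, and those of Acaca, Acly and Fads1 without H or G. Between days 12.5 and 18.5, where edgeR called 1 fatty acid gene, DESeq2 called 10, and edgeR called 9 without P7, 4 without A10 or D12 and 0 without H, G or B4. From day 18.5 to lactation, where 3 were called, 6 were called without P7, 5 without D12, 2 without H or G and 0 without F4, B4 or D6.

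Among the genes of chain synthesis, Fasn (ENSMUSG00000025153) stood at 34.7, 11.1 and 10.7 in the adult libraries, 259 and 242 at pregnancy day 12.5, 1029.8 and 1318 at day 18.5 and 1429 and 2082 in lactation (scaled CPM, libraries in the order given above). It rose at day 12.5 (log2 3.72, SE 0.57, adjusted p = 0.00468) and over the whole interval (log2 6.52, SE 0.63, adjusted p = 0.000206), and its day 18.5 libraries lay between those of day 12.5 and lactation. Acaca, which makes the malonyl-CoA that Fasn uses, stood at 25.99, 8.71 and 7.23 in the adult libraries, 95.7 and 94.5 at pregnancy day 12.5, 491 and 554 at day 18.5 and 327 and 632 in lactation. Its day 18.5 values lay between the lactation values (lactation minus day 18.5, log2 -0.12, not called). Acacb, the carboxylase isoform associated with mitochondria, was the one member called at every step. Its levels were 0.401, 0.335 and 0.139 in the adult libraries, 4.04 and 3.80 at pregnancy day 12.5, 31.9 and 39.3 at day 18.5 and 129 and 212 in lactation, and the step from day 12.5 to day 18.5 gave log2 3.18, SE 0.37, adjusted p = 0.00856. That call was lost without H, G or B4, and the call from day 18.5 to lactation without F4, B4 or D6. The adult values rest on 6, 1 and 1 UMIs in A10, P7 and D12, so its folds against the adult are imprecise. Olah (ENSMUSG00000026645) moved from 0.803 ± 0.708 (SD, n = 3) scaled CPM in the adult to 41.1 ± 0.312 (SD, n = 2) at day 12.5 (log2 5.74, SE 0.75, adjusted p = 0.00253) and 1652 ± 186 (SD, n = 2) in lactation (log2 11.07, SE 0.88, adjusted p = 9.28e-05). Its 3 adult values were 1.07, 1.34 and 0, so its fold rests on 20 adult UMIs.

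The genes that supply precursors were all called over the whole interval, and Acly also in pregnancy. Acly, which splits citrate to give cytosolic acetyl-CoA, stood at 46.8, 42.2 and 29.2 in the adult libraries, 179.9 and 170.5 at pregnancy day 12.5, 458 and 479 at day 18.5 and 560.3 and 1272 in lactation. It rose at day 12.5 (log2 2.15, SE 0.41, adjusted p = 0.0108) and over the whole interval (log2 4.54, SE 0.44, adjusted p = 0.000207). Me1, a source of NADPH, was not called in pregnancy and rose from 65.5 ± 28.3 (SD, n = 3) in the adult to 465 ± 237 (SD, n = 2) in lactation. Acss2, which activates acetate, went from 3.90 ± 1.62 (SD, n = 3) to 32.4 ± 23.2 (SD, n = 2) (log2 3.16, called), with D6 at 48.8 and F11 at 15.97.

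Desaturases and elongases were called mainly over the whole interval. Scd1, the delta-9 desaturase that makes oleate, stood at 209.9, 99.8 and 51.2 in the adult libraries, 225 and 225 at pregnancy day 12.5, 1232 and 1671 at day 18.5 and 3651 and 5520.0 in lactation. Its day 12.5 libraries lay just above the highest adult library, and both day 18.5 libraries were above all earlier ones (log2 5.25, SE 0.64, adjusted p = 0.000547, lactation minus adult). Elovl5, which extends polyunsaturated chains, stood at 16.1, 13.1 and 7.37 in the adult libraries, 28.4 and 28.03 at pregnancy day 12.5, 99.3 and 170.3 at day 18.5 and 382 and 627 in lactation and was called over the whole interval (log2 5.37, SE 0.46, adjusted p = 0.000124). Fads1, the delta-5 desaturase, rose at day 12.5 (log2 1.69, SE 0.35, adjusted p = 0.0143), whereas Fads2, the delta-6 desaturase, rose from 23.02 ± 0.675 (SD, n = 2) at day 18.5 to 91.7 ± 13.1 (SD, n = 2) in lactation (log2 1.99, SE 0.35, adjusted p = 0.0158). The last of these calls was lost without H, G, F4, B4 or D6 and in the main cluster alone, and the Fads1 call without H or G. The remaining members of the group were called only from adult to lactation, with log2 changes of 4.001 for Scd2, 2.65 for Elovl6 and 1.93 for Elovl1. The call of Scd2 was lost without D6. The direction of Elovl1 turned (log2 -0.65) when library totals included milk genes.

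The regulators moved by very different amounts. Thrsp stood at 10.9, 4.69 and 0.139 in the adult libraries, 687 and 659 at pregnancy day 12.5, 2126 and 1256 at day 18.5 and 3832 and 4652 in lactation. It had the largest rise of any member at day 12.5 (log2 6.96, SE 1.11, adjusted p = 0.00548). Srebf1, the fatty acid arm's transcription factor, rose from 30.4 ± 9.54 (SD, n = 3) in the adult to 87.3 ± 28.99 (SD, n = 2) in lactation (log2 1.53, SE 0.35, adjusted p = 0.00999), and turned to log2 -1.004 with milk genes in the totals. The call was lost without D6. Its day 18.5 libraries, at 137 and 112, were above both lactation libraries.

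Glycerolipid assembly did not move as a block. Dgat2, which adds the last acyl chain of triglyceride, stood at 11.7, 23.1 and 26.99 in the adult libraries, 2.08 and 2.04 at pregnancy day 12.5, 1.45 and 1.05 at day 18.5 and 6.53 and 9.37 in lactation. It fell at day 12.5 (log2 -3.30, SE 0.43, adjusted p = 0.00248), rose from day 18.5 to lactation (log2 2.66, SE 0.46, adjusted p = 0.0145, lost without F4, B4 or D6 and in the main cluster alone) and remained below the adult (log2 -1.35, SE 0.39, adjusted p = 0.0291), though this last call was lost when H, G, F11, D6 or D12 was left out and with the per-cell marker gate. Adipocyte-like cells, 20 or more of which were found in the lactation libraries alone, held 1042 and 1272 CPM of Dgat2 in F11 and D6. LP/alveolar cells there held 5.62 and 7.79 CPM of Dgat2, and 6.75 and 7.98 CPM of the adipocyte marker Adipoq. Adipoq was at 1586 and 1506 CPM in adipocyte-like cells. The part of free adipocyte RNA in the lactation rise of Dgat2 was not tested. Dgat1, a separate enzyme for the step of Dgat2, rose from 13.2 ± 5.66 (SD, n = 3) to 52.4 ± 5.36 (SD, n = 2) (log2 2.02, SE 0.33, adjusted p = 0.00218), a direction that turned to log2 -0.53 with milk genes in the totals. Lpin1, a phosphatidate phosphatase, rose over the whole interval (log2 2.78) but ranged from 8.90 to 109.8 among the adult libraries, and its call was lost without F11 or D6. Gpam, the mitochondrial first acyltransferase, was at 0.278 to 2.32 scaled CPM in all 9 libraries and was not called.

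The 6 sterol genes called from adult to lactation were the regulator Insig1, Hsd17b7 of the steps after lanosterol, and Aacs, Mvd, Pmvk and Mvk of the acetoacetate and mevalonate steps. No enzyme of the squalene and lanosterol steps was called. Insig1 stood at 11.4, 15.7 and 17.8 in the adult libraries, 23.4 and 22.9 at pregnancy day 12.5, 86.9 and 88.8 at day 18.5 and 138 and 417 in lactation. It rose over the whole interval (log2 4.22, SE 0.46, adjusted p = 0.000349), with all 4 libraries of day 18.5 and lactation above the other 5. Aacs, which activates acetoacetate, rose at day 12.5 (log2 1.999, SE 0.43, adjusted p = 0.0166) and over the whole interval (log2 3.10, SE 0.44, adjusted p = 0.00117). Hsd17b7, a late step after lanosterol, went from 5.29 ± 1.61 (SD, n = 3) to 37.7 ± 19.3 (SD, n = 2) (log2 2.82, SE 0.37, adjusted p = 0.000827). The mevalonate kinases and decarboxylase rose less, at log2 1.63 for Mvd, 1.34 for Pmvk and 1.22 for Mvk. With milk genes in the totals these 3 turned to -0.93, -1.21 and -1.25, and the Mvk call was lost in 10 other settings. Calls of Pmvk and Mvd were also lost without D6 and without TMM scaling. The day 12.5 calls of Aacs and Mvd were lost without H or G.

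Srebf2 and 12 other sterol genes were not called in any LP/alveolar contrast. Srebf2, the factor that drives the sterol genes, stood at 44.4, 41.5 and 43.4 in the adult libraries, 48.1 and 47.2 at pregnancy day 12.5, 40.7 and 47.1 at day 18.5 and 24.97 and 40.7 in lactation, a log2 change of -0.39 (SE 0.28) from adult to lactation. Hmgcs1, which forms HMG-CoA early in the mevalonate route, stood at 16.9, 22.4 and 26.4 in the adult libraries, 28.04 and 27.05 at pregnancy day 12.5, 21.6 and 30.3 at day 18.5 and 12.05 and 39.8 in lactation (log2 0.26, SE 0.44). Idi1 and Fdps of the isoprenoid steps had log2 values of 0.70 and 1.06, and the squalene and lanosterol enzymes 0.77 (Fdft1), 1.23 (Sqle) and 1.35 (Lss). The steps after lanosterol had 0.80 (Cyp51), 0.83 (Msmo1), 0.38 (Nsdhl), 0.70 (Sc5d) and 0.37 (Dhcr7), and the sterol carrier Stard4 0.88. Their SEs were 0.27 to 0.62, so moderate changes in either direction could be missed with these libraries.

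The lactation libraries stood apart from each other in the sterol arm. In LP/alveolar cells 18 of 19 sterol genes were higher in D6 than in F11, with a median log2 difference of 1.54 in scaled CPM, whereas 50.3% of all genes were higher in D6. The same direction held for 17 of 19 sterol genes in basal cells (median 1.29) and 18 of 19 in ML cells (1.89), and in fibroblasts, by CPM without TMM scaling, for 18 of 19 (2.11, beside 0.25 for all 7872 genes with 10 or more UMIs, 60.6% of which were higher in D6). In adipocyte-like cells, on the same scale as fibroblasts, 14 of 19 sterol genes were higher in D6 (median 0.33, beside 0.11 for all genes, 56.4% of which were higher). The direction of the fatty acid arm varied between classes, with 18 of 20 genes higher in D6 in LP/alveolar cells (median 0.67), 14 of 18 in ML cells (0.72) and 13 of 20 in adipocyte-like cells (0.18), but 4 of 19 in basal cells (-0.46) and 9 of 20 in fibroblasts (-0.49). Idi1 in LP/alveolar cells, for instance, was 7.40 in F11 and 47.9 in D6, the lowest and the highest of all 9 libraries. Counts of sterol genes called from adult to lactation in LP/alveolar cells also depended on single libraries. More were called without F11 and fewer without D6, and 9 were called without adult P7, against 6 with all libraries. D6 also kept more barcodes and was deeper per cell than F11, and the part of either in the sterol difference was not tested.

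Genes of lipid supply outside the list were examined in LP/alveolar cells as lists, from adult to lactation. Of 19 genes of fatty acid uptake, activation and assembly, 9 rose and 2 fell, beside 30.2% of all genes called and 14.9% called higher. The scaled CPM of Fabp3, a fatty acid carrier, went from 4.25 ± 3.89 (SD, n = 3) to 21122 ± 7007 (SD, n = 2), Cd36, a fatty acid translocase, changed by log2 11.06, and Lpl, the lipase that frees fatty acids from circulating lipoproteins, by 7.71. The falls were Acsl3 (log2 -2.46) and Lpin2 (-1.63). Of 11 further sterol genes 4 rose, among them Tm7sf2 (2.44), Acat2 (1.79) and Mbtps2 (1.25), and of 11 genes of fatty acid oxidation 2 rose, Ehhadh (3.66) and Cpt2 (1.57). The share called was 57.9% for uptake, 36.4% for the further sterol genes and 18.2% for oxidation. The median log2 change was 1.07 for the uptake list, 0.72 for the further sterol genes and -0.86 for oxidation, beside -0.11 for all genes.

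**Figure D3:**
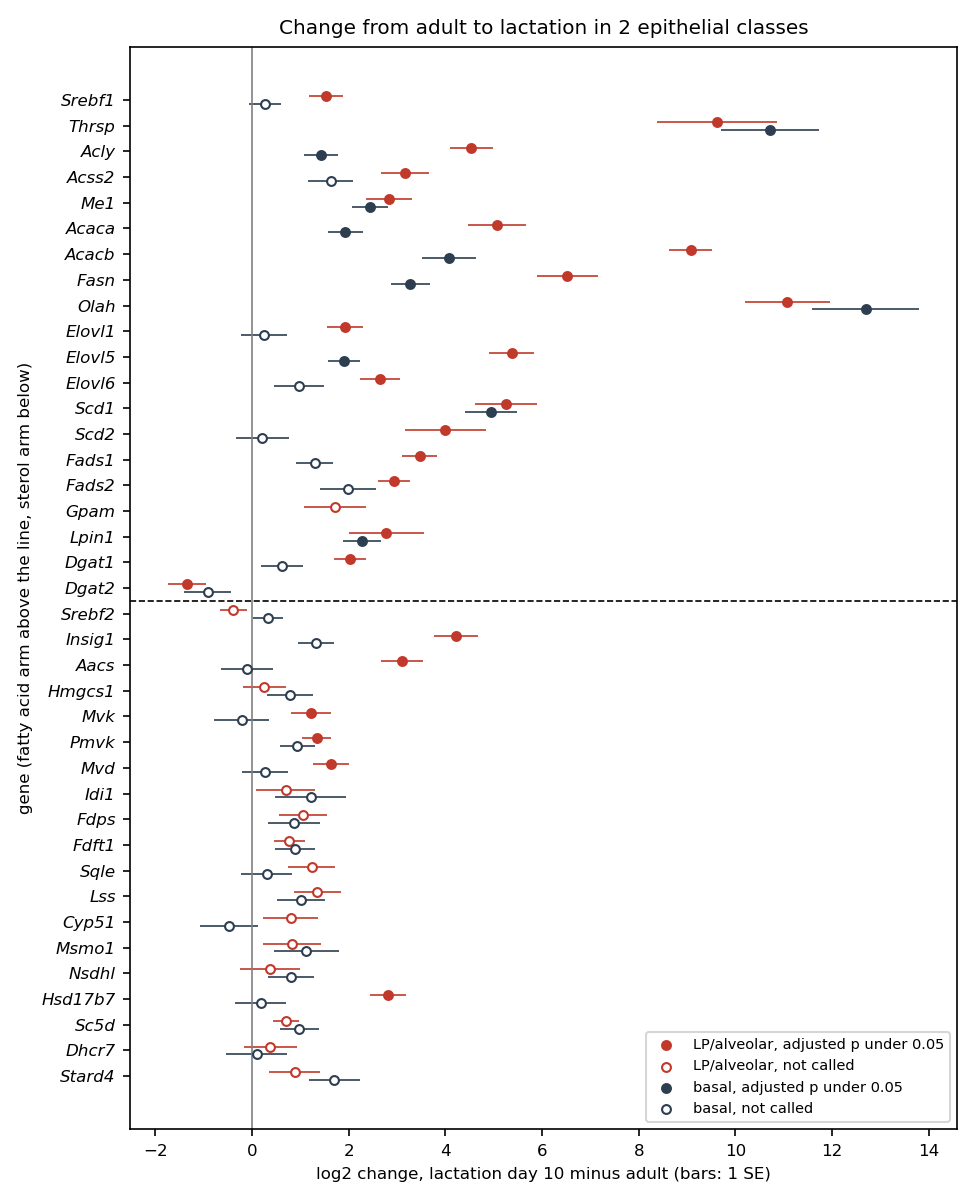
Log2 change from adult to lactation day 10 (x axis, bars 1 SE) for each gene in LP/alveolar cells (red) and basal cells (dark), filled where adjusted p was under 0.05. Gpam was not tested in basal cells. LP/alveolar points of the fatty acid arm reached 11.07 (Olah), and most sterol points of both classes lay between -1 and 2.

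Basal and ML cells and also non-epithelial cells carried a rise of the summed fatty acid arm, smaller than the 23.2 times of LP/alveolar cells. Lactation means were 6.20 times the adult mean in basal cells and 5.80 times in ML cells, and 5.54 times in fibroblasts, which stood at 471, 429 and 364 CPM in the adults and 3319 and 1354 in lactation. A mixed cluster of endothelial, blood and immune cells stood at 547 in A10 and 670.0 in P7, and at 2539.6 and 1955 in lactation, 3.69 times the adult mean. No test of the difference between these rises was made. In basal cells, Thrsp alone was called at day 12.5 (log2 6.24, SE 0.90, adjusted p = 0.0173), where 1.27% of 13366 genes were called. No gene of any kind was called in basal cells between days 12.5 and 18.5 (0% by edgeR, with 1178 genes at an unadjusted p under 0.05, while 1 member was called by DESeq2). Olah alone was called from day 18.5 to lactation, against 0.681% of genes. From adult to lactation 10 fatty acid genes rose and no sterol gene was called, against 3.24%. They were Olah, Thrsp, Scd1, Acacb, Fasn, Me1, Lpin1, Acaca, Elovl5 and Acly. The scaled CPM of Fasn went from 18.6 ± 4.99 (SD, n = 3) to 181 ± 76.4 (SD, n = 2) (log2 3.28, SE 0.40, adjusted p = 0.00137) and Scd1 from 12.4 ± 7.29 (SD, n = 3) to 392.2 ± 129 (SD, n = 2) (log2 4.94, SE 0.53, adjusted p = 0.00069). Olah in basal cells had 1 UMI over the 3 adult libraries, so its fitted change is no bound, and its lactation levels were 462 in F11 and 60.98 in D6. At day 12.5 no member was called without D12, H or G, 2 without A10 and 3 without F11 or D6. From day 18.5 to lactation 3 were called without P7, 1 without D6 and 0 without any other library, and from adult to lactation 6 were called without F11. In the main basal cluster alone 1, 0, 1 and 9 members were called for the 4 contrasts, against 1, 0, 1 and 10 in the whole class.

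The 8 milk genes took 42.2% of basal UMIs in F11 and 14.6% in D6, and 39.9% and 9.89% of fibroblast UMIs. The summed fatty acid arm was 2774 and 1330.1 CPM in basal cells of F11 and D6, so it was higher in F11 there as in fibroblasts, while in LP/alveolar cells it was lower in F11. In fibroblasts, a class of another origin, Olah was at 615 and 57.02 CPM and Thrsp at 960.4 and 125, beside 429 and 65.3 and 1047 and 217 in basal cells. The level of Olah in basal cells was 0.698 times that in fibroblasts in F11 (95% counting interval 0.543 to 0.907) and 1.15 times in D6 (0.767 to 1.70), so it did not exceed the fibroblast level beyond counting error in either library. The part of free alveolar RNA in the basal and ML changes was not tested.

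In ML cells, the hormone-sensing luminal class, both arms were called. At day 12.5, 7 fatty acid genes rose and Dgat2 fell, and 2 sterol genes rose (Hsd17b7 and Stard4), against 8.27% of 9092 genes called. The scaled CPM of Fads1 went from 2.14 ± 1.66 (SD, n = 3) to 49.4 ± 2.36 (SD, n = 2) (log2 4.39, SE 0.56, adjusted p = 0.000957), and Dgat2 from 143 ± 57.1 (SD, n = 3) to 30.9 ± 0.628 (SD, n = 2) (log2 -2.20, SE 0.45, adjusted p = 0.0133). No member was called between days 12.5 and 18.5 or from day 18.5 to lactation, where 0.044% and 0.011% of all genes were called, 644 and 645 genes reached 0.05 before adjustment, and the DESeq2 fits gave 0 and 2 members. From adult to lactation 10 fatty acid genes rose, Dgat2 fell and 7 sterol genes rose, against 4.2%. Stard4 stood at 0.3002, 0.265 and 0.549 in the adult libraries, 22.3 and 13.4 at pregnancy day 12.5, 62.8 and 67.9 at day 18.5 and 37.3 and 143 in lactation (log2 7.73, SE 0.65, adjusted p = 8.77e-05), so all 6 later libraries lay above the adults. Its adult values, at 0.549 or less, were near the floor, so its folds against the adult are imprecise. The other sterol calls were Insig1, Hmgcs1, Idi1, Msmo1, Hsd17b7 and Pmvk, at log2 1.93 to 3.32, and D6 was the higher lactation library for each of them. Without D6, 8 members of both arms were called in ML cells from adult to lactation instead of 18, and 11 when only cells passing a per-cell marker gate were summed, which kept 98 of 287 ML cells in F11 and 101 of 199 in D6. The part of cells failing the gate in these calls was not tested. At day 12.5, 5 were called without H or G instead of 10. Only 181 to 376 ML cells stood behind each pregnancy and lactation value, and the milk genes took 30.2% and 31.1% of ML UMIs in lactation.

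Whether the change differed between LP/alveolar and basal cells was tested as an interaction in 1 fit over 14676 genes, with the library as a block. At day 12.5 the change was greater in LP/alveolar cells for 6 fatty acid genes and 2 sterol genes and lower for Dgat2, against 10.1% of all genes called. From day 12.5 to 18.5 it was greater for Acaca, Acacb, Scd2, Elovl5, Hsd17b7 and Insig1, against 2.78%. From day 18.5 to lactation it was greater for Dgat2 alone, against 1.39%, and the part of free adipocyte RNA in it was not tested. From adult to lactation it was greater for 12 fatty acid genes and 4 sterol genes and lower for Srebf2, against 17.2%. The fatty acid genes called with the largest fitted differences were Acacb (log2 4.88, SE 0.69, adjusted p = 0.000708) and Scd2 (log2 3.94, SE 0.50, adjusted p = 0.000394), of which Acacb rests on the few adult UMIs given above and on 18 and 7 UMIs in basal cells of F11 and D6. Among sterol genes Aacs (log2 3.15, SE 0.35, adjusted p = 0.000166) and Insig1 (log2 2.81, SE 0.30, adjusted p = 0.000133) differed most. Olah, Thrsp and Scd1 were not called in this interaction, at log2 -1.04, -0.67 and 0.48. The Olah value rests on 1 adult UMI in basal cells and on basal lactation levels that did not exceed those of fibroblasts, as given above. The part of free alveolar RNA in these 3 differences was not tested. With all libraries 9 interactions were called at day 12.5, and fewer were called without H or G. From day 12.5 to 18.5, 6 were called with all libraries, fewer without H, G, F4 or B4, and 13 without D12. The 17 called from adult to lactation became 11 without D6, and the 1 called from day 18.5 to lactation became 2 without D12, B4 or D6. With the main LP/alveolar cluster alone the counts for the 4 contrasts were 9, 4, 1 and 13, and with the main basal cluster alone 9, 8, 1 and 18.

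Adipocyte-like cells were the second lipid-synthesising class, and 20 or more of them were found in the lactation libraries alone (96 in F11 and 460 in D6). Of 9 adipocyte markers, 8 were raised in the cluster. The other, Lep, was at 3.26 and 8.53 CPM in F11 and D6, below basal cells at 75.2 and 91.7. Of the adipocyte-like cells, 449 of 460 in D6 and all 96 in F11 had more than 2 UMIs of Adipoq, Cidec, Retn and Plin1 together and no more than 2 UMIs of the muscle genes Acta1, Ckm and Tnnc2, while 9 cells of D6 held more than 2 UMIs of the muscle genes. The adipocyte-like and LP/alveolar classes are clusters of the same cells, so levels were set side by side with 95% counting intervals and without a test. The milk genes took 20.2% of adipocyte-like UMIs in F11 and 9.03% in D6, and the part of free alveolar RNA in these levels was not tested. The summed fatty acid arm was 38888 and 50421 CPM in adipocyte-like cells, and the sterol arm 2152 and 2520.0, above LP/alveolar cells in both libraries. ML cells were also above LP/alveolar cells in the sterol sum, at 523 and 2180.5 CPM against 436 and 1054. Fibroblasts were above them in D6 alone (1467), and basal cells in neither library. Insig1 gave 288 of the 661 sterol UMIs of adipocyte-like cells in F11 and 2837 of 6791 in D6. By gene, 14 fatty acid and 11 sterol genes were higher in adipocyte-like cells in both libraries, 5 fatty acid genes were higher in LP/alveolar cells in both, and 1 fatty acid gene (Lpin1) and 8 sterol genes were neither, where higher means that the interval of the ratio lay wholly on that side of 1. By the same criterion 10.5% of the 13241 genes tested in LP/alveolar cells were higher in adipocyte-like cells in both libraries and 10.7% in LP/alveolar cells. The 8 sterol genes that were neither were Srebf2, Mvd, Mvk, Fdps, Sqle, Dhcr7, Hsd17b7 and Stard4. In D6 alone the interval lay wholly below 1 for Hsd17b7 (ratio 0.330), Sqle (0.582), Fdps (0.595), Srebf2 (0.635) and Lpin1 (0.874). Their F11 ratios were 0.314, 0.463, 1.27, 0.758 and 1.18. Those of Hsd17b7, Sqle and Srebf2 rest on 2, 4 and 5 adipocyte-like UMIs. Dhcr7 lay wholly above 1 in F11 alone, and Lss counted as higher on 4 such UMIs there. Median ratios were 3.71 (F11) and 2.29 (D6) for the fatty acid arm and 4.01 and 1.54 for the sterol arm.

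Dgat2 and Elovl6, singled out after their ratios were seen, had the largest ratios of all members in both libraries. Dgat2 was 185-fold (95% interval 135 to 259) higher in adipocyte-like cells in F11 and 163-fold (95% interval 136 to 197) higher in D6. Adipocyte markers were also found in LP/alveolar cells. In F11, Adipoq was 1586 CPM in adipocyte-like against 6.75 in LP/alveolar cells, and Cfd 67365 against 279. In D6 they were 1506 against 7.98 and 42711 against 255. The part of free adipocyte RNA in the LP/alveolar levels was not tested, and the intervals cover counting error only. Elovl6, which extends palmitate to stearate, was 49.2-fold (95% interval 41.8 to 58.1) and 33.3-fold (95% interval 31.3 to 35.3) higher. Dgat1, which catalyses the same step as Dgat2, was also higher, with ratios of 6.61 in F11 and 3.40 in D6. The ratios in F11 and D6 of the genes of precursor supply, chain synthesis and desaturation were 17.8 and 12.1 for Acss2, 6.26 and 5.39 for Me1, 5.97 and 4.24 for Fasn and 4.62 and 5.002 for Scd1. Gpam had ratios of 13.03 and 10.3, which rest on 16 and 30 UMIs in LP/alveolar cells. In the sterol arm they were 14.6 and 6.55 for Aacs, 7.91 and 3.04 for Insig1, 7.85 and 3.25 for Hmgcs1, 8.42 and 1.97 for Cyp51 and 6.92 and 3.58 for Fdft1, and each was the larger in F11.

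The 5 genes on the other side were Olah, Elovl1, Fads2, Fads1 and Elovl5. Olah was 1535 and 1265 CPM in LP/alveolar cells and 114 and 29.7 in adipocyte-like cells, which is below its level in fibroblasts of the same libraries. Fads2 was 70.97 and 84.03 CPM against 6.51 and 7.42, and Elovl1, an elongase of very long chains, 189 and 212 against 22.8 and 10.8. Ratios for Fads1 were 0.494 and 0.2502 and for Elovl5 0.761 and 0.550. With milk genes in the totals all ratios moved upward. Elovl5 then lay above 1 in both libraries, at 2.64 and 2.30. Fads1 was 1.71 in F11 and 1.04 in D6, where its interval spanned 1 (0.930 to 1.17).

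**Figure D4:**
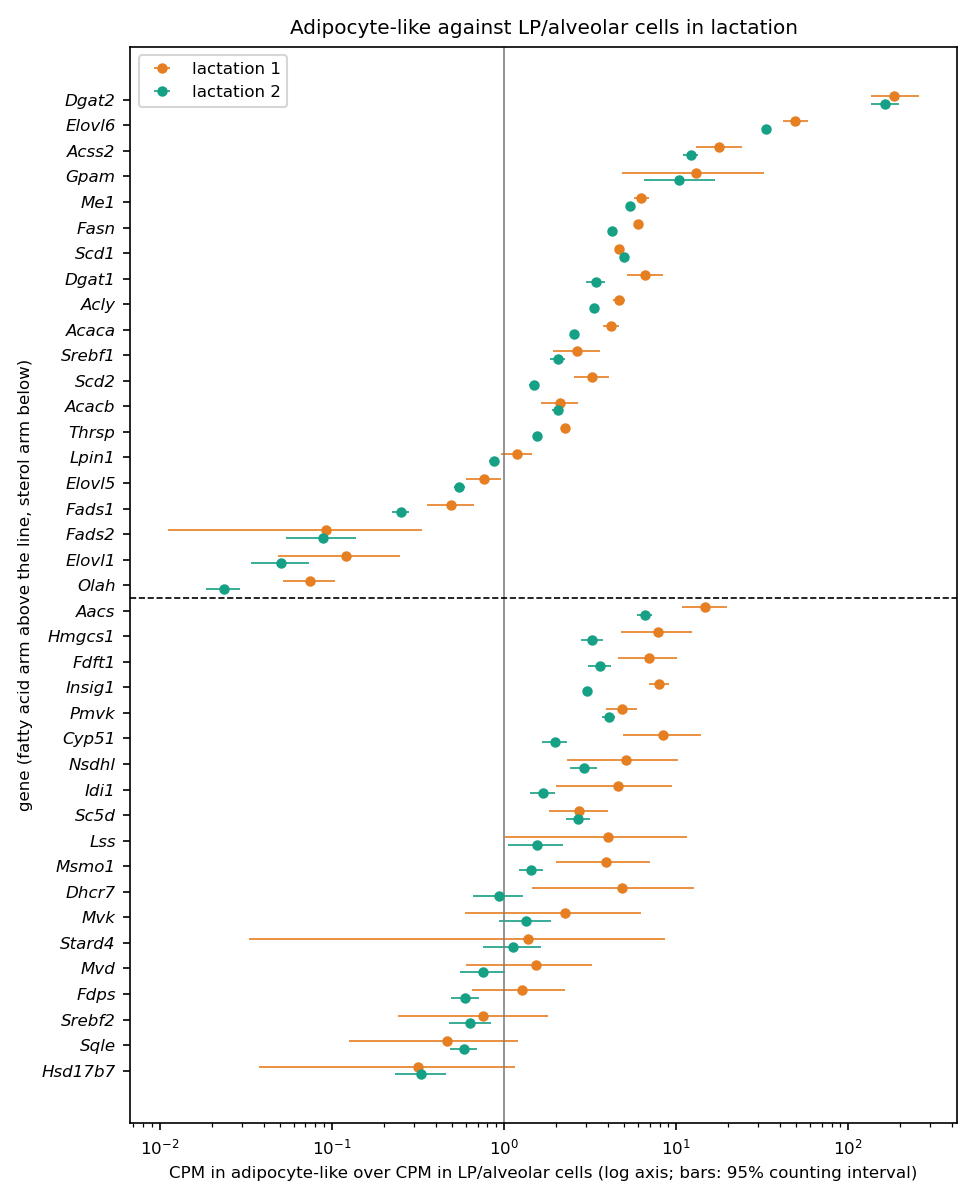
Ratio of CPM without milk genes in adipocyte-like over LP/alveolar cells (log x axis) for each gene in the lactation libraries F11 (lactation 1) and D6 (lactation 2), with 95% counting intervals. Dgat2 stood at 185 and 163, Olah at 0.0742 and 0.0235, Aacs, of the sterol arm, at 14.6 and 6.55, and Srebf2 at 0.758 and 0.635.

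Within LP/alveolar cells of lactation, the order of the secretory and main clusters in the fatty acid arm depended on the scale. Without milk genes in the totals the secretory cluster was higher, at 14969 against 9294 CPM in F11 and 18802 against 13118 in D6. Olah was 2223 against 1018 and 1472 against 1049 on that scale. It was also among the leading genes of the secretory cluster, which were ranked against all other cells of all libraries and stages. With milk genes in the totals the secretory cluster was lower in the summed arm, at 2256 against 3522 CPM in F11 and 3261 against 3907 in D6. Olah was lower in it on that scale too, in both libraries. In UMIs per cell the sums were close, at 28.99 against 26.5 in F11 and 67.98 against 65.04 in D6. In the main cluster alone the summed fatty acid arm was 691, 740.1 and 365 CPM in the adults, 2173 and 2069.8 at day 12.5 and 7063 and 6794 at day 18.5, so libraries of successive stages did not overlap there either. Between day 18.5 and lactation, 1 fatty acid gene rather than 3 was called when the main cluster alone was used, and from adult to lactation 19 fatty acid and 6 sterol genes were called, as many as in the whole class.

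The post-involution gland was compared with the adults as values, since it was 1 library. In LP/alveolar cells 11 fatty acid genes lay above the range of the 3 adult libraries, 1 below and 8 within it, with a median log2 difference of 0.44, and 0 sterol genes lay above, 5 below and 14 within, with a median of -0.37. Of all genes tested in these cells, 20.4% lay above the adult range and 18.3% below it. Thrsp was 128 CPM post-involution against 10.2, 5.96 and 0.157 in the adults. Olah was 16.7 against 1.003, 1.70 and 0, Acacb 3.25 against 0.376, 0.426 and 0.157, and Fasn 51.03 against 32.5, 14.05 and 12.1. Dgat2 was the gene below the adult range, at 8.86 against 10.97 to 30.5. The sterol genes below it were Pmvk, Idi1, Cyp51, Insig1 and Stard4. The adult libraries differed from each other in the sterol arm, and the result depended on which was used. Set against A10 alone, 10 of 19 sterol genes were higher post-involution (median log2 0.12, with 60.7% of all genes higher), against P7 alone 4 (median -0.67, 46.9%) and against D12 alone 3 (median -0.53, 42.5%). The summed sterol arm was 265 CPM, between A10 at 235 and the other adults. For the fatty acid arm 18, 12 and 17 of 20 genes were higher than in A10, P7 and D12. The study's methods say that the adult FVB/N and post-involution samples were processed together, without naming the adult library, and the part of processing in these differences was not tested. Milk genes took 9.93% of the UMIs of these cells. In basal cells 3 fatty acid genes lay above the adult range and 4 below (median log2 -0.04), and 1 sterol gene lay above and 10 below (median -0.55), where 20.9% of all genes lay above and 19.4% below. Basal sterol genes were higher post-involution than in A10, P7 and D12 for 8, 3 and 2 of 19, against 57.1%, 47.6% and 45.3% of all genes. In ML cells 6 fatty acid genes lay above and 1 below (median 0.15), and 1 sterol gene lay above and 5 below (median -0.30), where the shares of all genes were 26.2% and 12.3%. ML sterol genes were higher than in these libraries for 13, 3 and 3 of 19, against 73.6%, 44.1% and 55.1% of all genes.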

How the data were processed

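Single-cell RNA libraries of sorted mouse mammary cells were made with 10x chemistry from pooled mice. The deposited values are raw counts of UMIs per gene and barcode. The authors ran Cell Ranger (3.1.0 in the submitters' notes, which also name mm10 and edgeR; 3.0.2 or 3.1.0 in the matrix headers). The 39 members, the lists and the tests were chosen with earlier results of these data known. Cells were kept by the study's filters, and doublets were limited only by its upper cut-offs, with no caller run. Cells were integrated in Seurat 5.3.0 (reciprocal PCA, 2000 variable genes without members or milk genes, 20 dimensions, resolution 0.1), and the 9 clusters were named from fixed markers.

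Counts were summed per library and class where there were 20 or more cells. The 8 milk genes were left out. Stages were compared with edgeR 4.0.16 (R 4.3.3): TMM, filterByExpr, quasi-likelihood test, Benjamini-Hochberg over all genes tested. SE is the absolute log2 change over the square root of F. Libraries stand for pools of mice, so p-values measure the spread between libraries. The adult spread includes P7, whose barcodes had 14 bases where those of the other libraries had 16. Among FVB/N samples the study's methods name only adult and post-involution as processed together. For the pregnancy and lactation contrasts the part of processing run cannot be told apart from stage and was not tested. Replicate numbers follow accession order and pair nothing. Adipocyte-like and LP/alveolar cells, and the post-involution library, were described without a test. Counting intervals (95%) cover counting error only. Members called with the largest change were given in full and the others by counts. Alternatives were DESeq2 1.42.0, other scalings, no filter, cells with 1000 or more genes, a per-cell marker gate and leaving out each library. The main LP/alveolar or basal cluster alone was added after seeing the data. Log2 ratios of post-involution over adult levels had 0.5 CPM added. The LP/alveolar, basal and ML fits were tested on simulated data for the contrast of lactation day 10 minus adult alone. The other contrasts and the interaction were not simulated. Promoter sequences came from RefSeq (GRCm38.p6).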

Additional observations from a re-analysis of the deposited data

Results flagged for a closer look

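In 33 cases the change of a member between stages differed between LP/alveolar and basal cells by the interaction test (edgeR quasi-likelihood, adjusted p under 0.05), each value being the log2 change in LP/alveolar cells minus that in basal cells. From adult to pregnancy day 12.5 these were Acacb (2.89), Fasn (2.86), Acly (2.38), Acaca (2.35), Aacs (2.11), Fads1 (1.47), Srebf1 (1.30), Mvd (1.28) and Dgat2 (-2.61). From day 12.5 to day 18.5 they were Acacb (2.25), Scd2 (2.24), Elovl5 (2.05), Insig1 (1.68), Acaca (1.59) and Hsd17b7 (1.55), and from day 18.5 to lactation Dgat2 (3.65). From adult to lactation they were Acacb (4.88), Scd2 (3.94), Elovl5 (3.48), Fasn (3.44), Acaca (3.21), Aacs (3.15), Acly (3.01), Insig1 (2.81), Hsd17b7 (2.67), Fads1 (2.08), Elovl1 (1.75), Elovl6 (1.69), Acss2 (1.60), Mvk (1.47), Dgat1 (1.41), Srebf1 (1.31) and Srebf2 (-0.70).

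A cluster that took no name, led by Elovl4 and Upk3a, held 76 cells in lactation D6 and was used in no comparison. Its summed sterol arm was 4344 CPM in D6, above the 288 to 629.5 CPM of the same cluster in the other 9 libraries, with 355 in the 40 cells of F11. Elovl6 in this cluster was 2324 CPM in D6 and 14.8 in F11.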

How the results depend on the processing

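Counts are of members called. In LP/alveolar cells DESeq2 called 10 fatty acid genes and 1 sterol gene from day 12.5 to 18.5 (1 and 0 by edgeR) and 7 and 1 from day 18.5 to lactation (3 and 0). Without the filter on low counts these were 10, 1, 7 and 2, with 5 sterol genes at day 12.5 (3 with it). The main cluster alone, chosen after seeing the data, gave 1 of the 3, and it and the main basal cluster alone, also chosen after seeing the data, gave counts within 1.5 times in all other contrasts. In basal cells DESeq2 gave 4, 1 and 6 for the successive steps (1, 0 and 1 by edgeR), as did no filter, and cells with 1000 or more genes gave 3 at day 12.5 and 6 from adult to lactation (10). In ML cells no filter gave 2 for each of the later steps (0), DESeq2 2 for the last, and the per-cell marker gate 11 from adult to lactation (18). For the interaction no filter gave 14, 15 and 5 for the successive steps (9, 6 and 1), and DESeq2 2 for the last. In these, the steps are the contrasts between successive stages. The cause of these differences was not tested.

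Scaling mattered most in lactation. Without TMM, sterol calls from adult to lactation fell to 3, the median of all genes moved from -0.11 to -0.47, and the share of calls that were higher moved from 49.2% to 32.0%. With milk genes in the totals that median was -2.60, and 12 fatty acid genes (10 higher) and 16 sterol genes (1 higher) were called, 11 sterol genes (0 higher) and 4 fatty acid genes (0 higher, median of the arm -0.69) from day 18.5 to lactation, 2 members in basal cells at day 12.5 and 21 interactions from day 18.5 to lactation (1 higher). Directions turned for Pmvk (-1.21), Elovl1 (-0.65), Mvk (-1.25), Mvd (-0.93), Srebf1 (-1.004) and Dgat1 (-0.53). Median log2 ratios of adipocyte-like over LP/alveolar cells, with 0.5 UMIs added to both counts of each gene, became 3.68 and 3.25 for the fatty acid arm in F11 and D6 (1.88 and 1.19 without milk genes) and 3.94 and 2.70 for the sterol arm (2.15 and 0.64 without them).

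Leaving out each library in turn gave, for the 4 contrasts in the order used, 3 to 10, 0 to 9, 0 to 6 and 15 to 20 fatty acid genes and 0 to 4, 0 to 1, 0 to 1 and 3 to 12 sterol genes in LP/alveolar cells. It gave 0 to 3, 0, 0 to 3 and 6 to 12 members in basal cells, 5 to 14, 0, 0 to 2 and 8 to 22 in ML cells, and 5 to 10, 0 to 13, 1 to 2 and 11 to 18 interactions. Where this left a stage with 1 library, that library was assumed to vary like the others. No paired analysis was possible because replicate numbers follow accession order only. Depth limits basal and ML values in lactation, with 199 to 861 cells per library, and ML values in pregnancy, with 181 to 376.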
